A study of Mus musculus with 10 samples.

Results

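The clustered histone genes are mainly the replication-dependent histone genes that lie side by side in a few stretches of the mouse genome. They were taken as all genes whose symbol in the deposited promoter peak tables starts with Hist1, Hist2, Hist3 or Hist4. That gave 40 genes of the 10419 to which a promoter peak of RNA polymerase II was assigned in at least 1 library. By family they are 5 genes for the linker histone H1, 11 for H2A, 3 for H2B, 8 for H3 and 13 for H4. The choice by symbol also takes in the pseudogene Hist1h2al, the testis H1 gene Hist1h1t and Hist4h4, which lies alone. Polymerase was mapped by chromatin immunoprecipitation and sequencing using antibody 8WG16 (ab817 in the labels) in primary Th1 cells, a class of T helper cell known for interferon gamma, from mice of the strain Balb/c DO11.10. All groups share the same history: CD4+ T cells were primed for 36 to 48 h under Th1 conditions, grown for 2 or 3 days with an interleukin 2 analogue and rested for a day without it. The cells labelled NR were not restimulated. The other cells were restimulated for 30 min or for 2 h by anti-CD3 (5 µg/ml) fixed to the plate and anti-CD28 (2.5 µg/ml) in solution. Each of the 3 groups has 2 libraries, called replicate 1 and replicate 2 by the labels, which do not say whether these came from separate animals or cultures. The p-values therefore describe the spread of these libraries only, and that spread may be technical. The sources used here do not give the animals' age.

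Clustered histone genes code for the proteins that package newly copied DNA. The core histones H2A, H2B, H3 and H4 form the nucleosome, and H1 binds the DNA between nucleosomes. These genes are short and without introns, their mRNAs end in a stem loop instead of a poly(A) tail, and they are transcribed mainly in S phase in a nuclear structure called the histone locus body, where the factor NPAT acts. Many H2A and H2B genes stand head to head and share the DNA between their start sites.

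The sequences just before the start sites show what the families share, so 150 bases of 11 promoters are printed here, 5′ to 3′ on the strand of the gene, from the RefSeq table on the build GRCm38.p6. RefSeq had a promoter, from 250 bases before to 50 bases after the start, for 37 of the 40 genes. Over all clustered histone genes in that annotation there were 63 promoters of 62 genes. Capitals mark exact matches, on either strand and at any position, to 4 motifs: TATAAA (letters of the TATA box), CCAAT, ATTTGCAT (the octamer known from H2B promoters) and AAACACA (the H1 box). Matches of different motifs may share bases. The 4 H1 promoters come first, since 3 belong to genes under peaks in every library and the fourth, Hist1h1t, codes for a testis H1 and had the lowest median fold enrichment percentile of the members. They lie at chr13:21780626-21780775 (minus strand), chr13:23554882-23555031 (plus strand), chr13:23738657-23738806 (plus strand) and chr13:23695661-23695810 (plus strand).

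Hist1h1b: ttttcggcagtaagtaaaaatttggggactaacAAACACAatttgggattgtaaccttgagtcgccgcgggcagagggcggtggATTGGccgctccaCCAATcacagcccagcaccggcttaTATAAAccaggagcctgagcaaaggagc
Hist1h1d: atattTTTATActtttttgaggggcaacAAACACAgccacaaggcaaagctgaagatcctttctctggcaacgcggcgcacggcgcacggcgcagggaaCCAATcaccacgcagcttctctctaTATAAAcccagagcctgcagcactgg
Hist1h1c: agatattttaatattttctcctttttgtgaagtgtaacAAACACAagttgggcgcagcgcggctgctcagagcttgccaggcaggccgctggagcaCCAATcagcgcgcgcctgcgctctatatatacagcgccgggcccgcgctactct
Hist1h1t: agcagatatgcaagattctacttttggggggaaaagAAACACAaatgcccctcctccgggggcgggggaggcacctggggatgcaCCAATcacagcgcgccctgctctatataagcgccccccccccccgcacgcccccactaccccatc

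The H3 promoters of Hist1h3i and Hist1h3b are shown because these genes ranked among the highest by fold enrichment over the libraries. They lie at chr13:21783398-21783547 (minus strand) and chr13:23752195-23752344 (plus strand).

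Hist1h3i: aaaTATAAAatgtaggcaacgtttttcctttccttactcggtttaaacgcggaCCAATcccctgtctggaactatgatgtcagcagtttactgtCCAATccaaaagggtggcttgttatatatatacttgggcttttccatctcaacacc
Hist1h3b: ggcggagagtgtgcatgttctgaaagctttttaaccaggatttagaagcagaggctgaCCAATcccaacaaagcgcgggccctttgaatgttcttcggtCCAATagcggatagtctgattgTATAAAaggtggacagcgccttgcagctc

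For H2A and H2B, Hist1h2ac and Hist1h2bm show the octamer on opposite strands, and Hist3h2ba had the smallest p-value of all members at 2 h. They lie at chr13:23683960-23684109 (minus strand), chr13:21721894-21722043 (plus strand) and chr11:58948761-58948910 (plus strand).

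Hist1h2ac: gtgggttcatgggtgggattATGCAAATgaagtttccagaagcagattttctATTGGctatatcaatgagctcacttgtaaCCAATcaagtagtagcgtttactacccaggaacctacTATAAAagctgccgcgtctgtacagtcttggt
Hist1h2bm: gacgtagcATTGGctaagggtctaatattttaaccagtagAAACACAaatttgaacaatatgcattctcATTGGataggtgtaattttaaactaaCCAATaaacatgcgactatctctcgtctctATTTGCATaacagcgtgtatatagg
Hist3h2ba: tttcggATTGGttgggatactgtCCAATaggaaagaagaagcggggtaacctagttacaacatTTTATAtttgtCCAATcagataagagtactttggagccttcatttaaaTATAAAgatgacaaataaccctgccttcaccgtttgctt

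The H4 promoters of Hist1h4d and Hist1h4j are shown because most H4 promoters lack CCAAT: Hist1h4d is 1 of the few with it, on the opposite strand, and Hist1h4j holds none of the 4 motifs in the printed stretch. They lie at chr13:23581418-23581567 (plus strand) and chr13:21734884-21735033 (plus strand).

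Hist1h4d: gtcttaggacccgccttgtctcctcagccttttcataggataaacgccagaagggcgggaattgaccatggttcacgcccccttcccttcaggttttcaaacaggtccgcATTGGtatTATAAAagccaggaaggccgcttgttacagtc
Hist1h4j: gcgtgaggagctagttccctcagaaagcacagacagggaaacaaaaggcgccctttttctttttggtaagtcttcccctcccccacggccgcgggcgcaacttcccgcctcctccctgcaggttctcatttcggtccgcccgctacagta

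CCAAT was present on either strand in all 6 H1, all 18 H2A, all 17 H2B and all 10 H3 promoters, and in 3 of 12 H4 promoters. Among all 32851 promoters of the same length in the table, 37.4% held it. The H1 box was present in 5 of 6 H1 promoters, 112 to 122 bases before the start and on the strand of the gene in each, against 7.18% of all promoters. The sixth, Hist1h1a, did not hold these letters in the window. Hist1h1t held the H1 box 114 bases before its start and also CCAAT, as the widely expressed H1 genes do. The octamer was in 7 of 18 H2A and 7 of 17 H2B promoters and in no H1, H3 or H4 promoter, against 1.74% of all promoters. Every H2B match lay on the strand of the gene and every H2A match on the opposite strand. The windows of head to head pairs overlap, so 1 site can count for both genes, for CCAAT as well. The octamer 155 bases before Hist1h2ah, for example, is the same site as that 30 bases before Hist1h2bk. TATAAA was in 35 of the 63 histone promoters, or 55.6%, against 13.6% of all. Matches counted anywhere in the window, such as 250 bases before the start in Hist1h4f, 147 in Hist1h3i and past the start in Hist1h4a. The 35 is therefore not a count of TATA boxes. Each match is a description of letters, not a measured binding site.

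The libraries differed in depth, from an inferred 4.58 M reads (NR replicate 1) to 39.4 M (NR replicate 2), with 12.9 and 32.1 M at 30 min and 22.1 and 35.0 M at 2 h. M stands for mega. In every group replicate 2 was the deeper library. Of the defining genes of T helper cells, 8 of 9 had a promoter peak in all 6 libraries, and of those of Th1 cells 5 of 7, among them Tbx21 and Ifng. Of 17 markers of other cells, none had a peak in all 6 libraries and 14 had none in any, Lyz2, Csf1r and Foxp3 among them. Cd8b1 had a peak in 3 libraries, and Gata3 and Il4, markers of Th2 cells, in 5 each. The part of these in the results was not tested. The lists hold no read counts, so the value compared between libraries was the called length, the summed width in bp of the promoter peaks assigned to a gene. A change in the share of cells with polymerase on a gene cannot be told apart from a change in the amount per cell.

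Nearly all clustered histone genes lay under a polymerase peak with and without restimulation. By assignment, 38 and 36 of the 40 genes had a peak in replicates 1 and 2 of NR, 37 and 36 after 30 min and 37 and 35 at 2 h, and 35 had one in all 6. Of all 10419 genes, 8359 and 9405 had one in NR, 8058 and 9704 after 30 min and 9310 and 9700 at 2 h. A peak in all 6 was found for 7410 of them. Both sets hold only genes with a peak in at least 1 library, so high counts are partly set by that choice. By position the coverage was wider still. RefSeq lists 70 clustered histone genes, 67 of them protein coding, and 67 lay at least in part under a promoter peak in all 6 libraries, 59 of them along their whole length. Of the 30 genes to which no peak was assigned, 28 lay under a peak assigned to a neighbour in all 6 libraries. The other two were Hist1h2aa and Hist1h2ba, the H2A and H2B genes known from testis, which lay under no promoter peak in any library. The third gene short of 6 libraries was Hist1h1t.

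**Figure D1:**
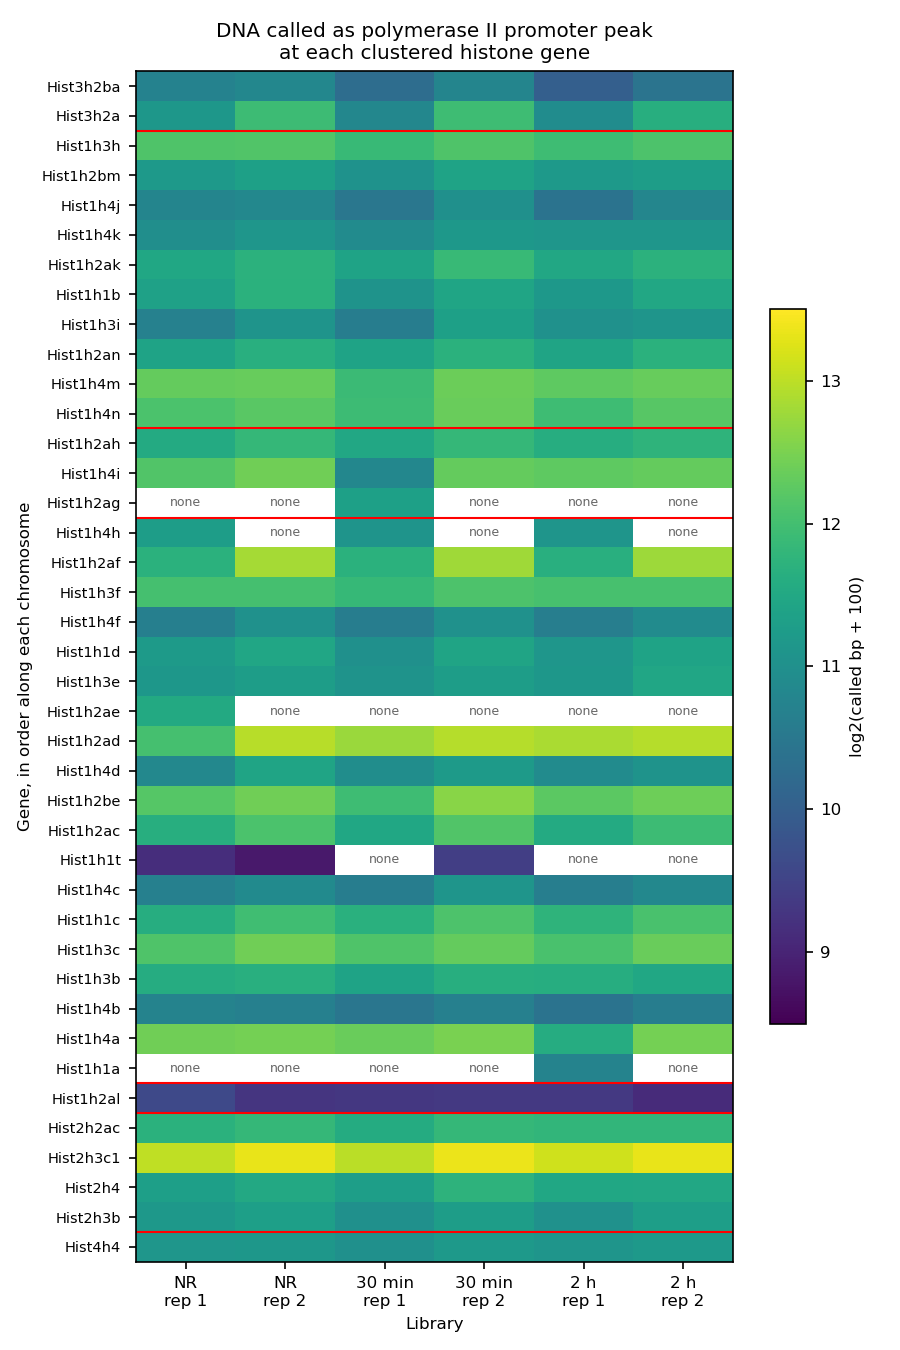
Called length of the 40 clustered histone genes in the 6 libraries, as log2(called bp + 100) on the colour scale, with genes in order along each chromosome and red lines between blocks of neighbouring genes. Cells marked none have no assigned peak: these are Hist1h2ag, Hist1h4h, Hist1h2ae, Hist1h1t and Hist1h1a, while the other 35 genes have a peak in every library.

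Hist1h1t stood apart from the other H1 genes. Its peaks were 473 and 356 bp long in the NR libraries and 591 bp in 30 min replicate 2, and it had none in 30 min replicate 1 or in either library at 2 h. Its fold enrichment lay at the percentiles 10.7, 1.49 and 2.01 of those 3 libraries. A peak reached over the gene body itself in only 2 libraries, covering 17.96% of it in NR replicate 2 and 52.7% in 30 min replicate 2. The merged peak region runs on to Hist1h4c, an H4 gene downstream. Hist1h1c, by contrast, had 3054 and 3904 bp of called DNA in NR cells, 3151 and 4323 bp after 30 min and 3349 and 4203 bp at 2 h.

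The 40 genes fell into 7 blocks, where a gap of over 100 kb between neighbours starts a new one. The largest, on chromosome 13 from 23531044 to 23764412 (mm10), holds 19 of them in 233 kb. A second block on chromosome 13, from 21717628 to 21832197, holds 10 and the third, from 22035122 to 22042949, holds 3. The 4 Hist2 genes lie on chromosome 3 from 96220413 to 96269155, the Hist3 pair on chromosome 11 from 58948911 to 58955192, and Hist4h4 alone on chromosome 6. Hist1h2al, which RefSeq lists as a pseudogene, lies alone on chromosome 13 from 51200084 to 51203066. Within the largest block, 19.9% to 25.9% of the DNA was under promoter peaks, depending on the library. The only promoter peak there that belonged to no histone gene was at Hfe, an iron regulator, and it was called in the 3 replicates 2 alone. Every other promoter peak of the block overlapped a RefSeq histone gene, except the Hist1h1t peak of NR replicate 1, which lay beside its gene.

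**Figure D2:**
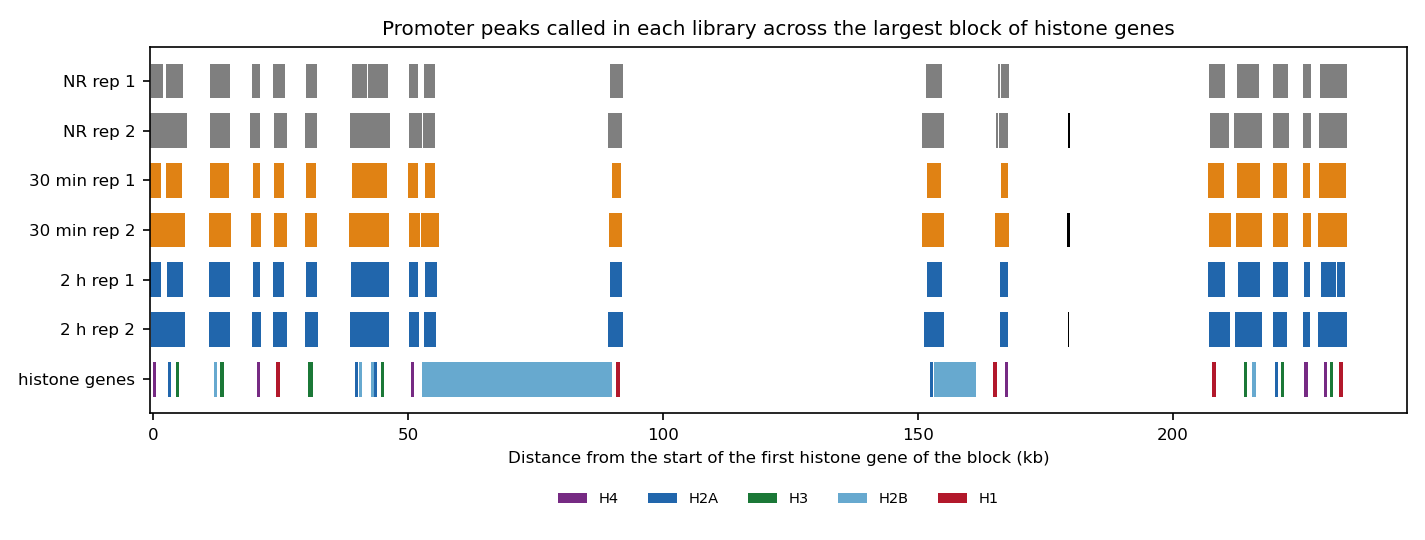
Promoter peaks (bars) of each library across the largest block, by distance in kb from the start of its first histone gene, with the RefSeq histone genes coloured by family in the bottom row. The same groups of genes carry peaks in all 6 libraries, and the black bar in the 3 replicates 2 is the peak at Hfe; 2 H2B gene models are long in the annotation.

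Several genes shared a peak, which the deposited tables assign to 1 of them. Merging peaks that overlap by at least 1 bp gave 36 regions, and all 36 held a peak in all 6 libraries. Of these, 23 covered more than 1 RefSeq histone gene and 13 covered 1, with a median length of 3418.5 bp (687 to 7955). The longest held 5 genes: Hist1h2ad, Hist1h2ae, Hist1h2bf, Hist1h2bg and Hist1h3d. The RefSeq start sites in the promoter table gave 10 head to head H2A and H2B pairs, 164 to 281 bp apart with a median of 204.5 bp. In 9 of the 10 both genes lay under peaks assigned to the same gene in all 6 libraries, and the exception was the testis pair Hist1h2ba and Hist1h2aa. In 3 of the 9, that gene was an H3 or H4 neighbour in every library, as Hist1h4m for the pair Hist1h2bq and Hist1h2ao. H2B genes seldom gave their name to a peak: 18 of 19 RefSeq H2B genes lay under a peak in all 6 libraries, 15 of them under another gene's name.

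The same shared peaks set which genes seemed to lose one. Hist1h2ag had a peak of 2508 bp in 30 min replicate 1 alone, where the region that the other 5 libraries assign whole to Hist1h4i was called as 2 peaks. Hist1h4i had 4411 and 5363 bp in NR cells, 1697 and 5034 bp after 30 min and 4788 and 5022 bp at 2 h. The region as a whole measured 4205 bp in 30 min replicate 1. Hist1h4h had a peak of its own in the 3 replicates 1 (2404, 2077 and 2095 bp) and none in the 3 replicates 2. Hist1h2af, next to it, held 3231, 3227 and 3117 bp in the replicates 1 and 7124, 6951 and 6842 bp in the replicates 2. Hist1h2ae appeared only in NR replicate 1, with 2856 bp, and Hist1h1a only in 2 h replicate 1, with 1614 bp, beside Hist1h2ad and Hist1h4a. In each of these cases the DNA lay under a peak in all 6 libraries and the name changed.

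By median, the histone genes stood high in every library by fold enrichment. That is the authors' ratio of a peak to its local background, and it is ranked here only within a library. Their median percentile was 99.5 and 96.6 in the NR libraries, 97.1 and 86.9 at 30 min and 94.0 and 87.8 at 2 h. Above the percentile 90 were 36 of 38 and 25 of 36 histone genes in the NR libraries. The counts were 35 of 37 and 14 of 36 at 30 min and 28 of 37 and 15 of 35 at 2 h. Some lay lower: Hist4h4 was at 67.1, 54.4 and 56.1 in the replicates 2, and Hist1h4b at 54.1 and 56.3 at 2 h. In NR replicate 1, 31 of the 100 genes with the highest fold enrichment were clustered histone genes, and 6 of the top 10. The other libraries held 7 (NR replicate 2), 7 and 1 (30 min) and 3 and 3 (2 h) in their top 100. In each group the shallower replicate 1 thus gave the higher median percentile. By pileup, the read coverage at the summit, their median percentile was 98.0 to 99.6 in all 6 libraries.

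**Figure D3:**
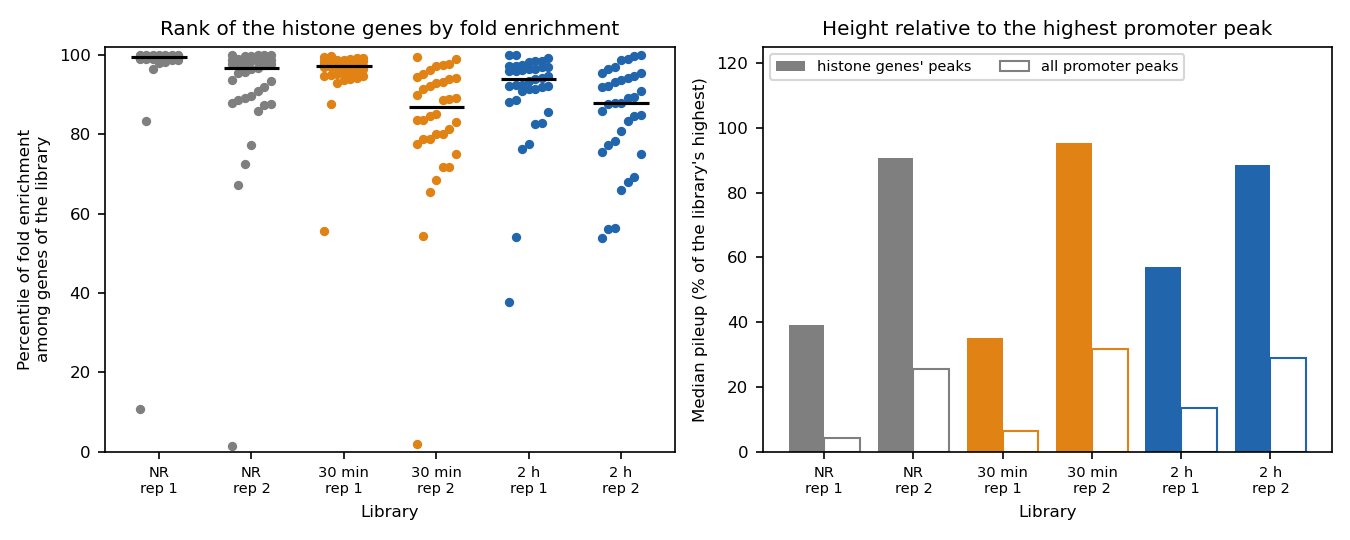
Left, percentile of each histone gene's fold enrichment among the genes with a peak in the same library, with the median as a black line; right, median pileup as a percentage of the library's highest promoter peak, for histone peaks (filled) and all promoter peaks (open). In each group the median percentile lies lower in replicate 2 than in replicate 1, and in the 3 replicates 2 the median histone peak reached 88.6% to 95.5% of the highest pileup.

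In the 3 replicates 2 the histone peaks stood close to the highest pileup of the library. The median was 90.6% of it in NR cells, 95.5% at 30 min and 88.6% at 2 h, against 39.0%, 35.1% and 57.1% in the replicates 1. Within 10% of the highest pileup were 20 histone peaks in NR replicate 2, 30 in 30 min replicate 2, 15 in 2 h replicate 2 and 0 in each replicate 1. Over all promoter peaks, 37 of 10383, 157 of 10680 and 80 of 10658 were that high in those 3 replicates 2. In the replicates 1 they were 1 in NR cells, 3 at 30 min and 13 at 2 h. In 5 of the 6 libraries the highest pileup, in reads, was 1.93 to 2.00 times the width in bp of the narrowest promoter peak, and in NR replicate 1, the shallowest, 1.54 times. Its part in the rank of the histone genes was not tested.

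Individual genes differed in how stable their rank was. Hist1h3i, an H3 gene, ranked 7 and 1 among all genes in the NR libraries, 71 and 56 at 30 min and 12 and 31 at 2 h, and was at or above the percentile 99.1 throughout. Hist1h3b, another H3 gene, lay at the percentiles 99.5 and 99.9, 93.8 and 99.0, and 92.4 and 99.0. Hist1h4a, an H4 gene, lay at 99.6 and 99.9, 99.2 and 97.2, and 98.5 and 95.5. Hist1h2be lay at 99.9 and 98.4, 99.6 and 93.0, and 99.2 and 94.7. Its called length was 4536 and 5352 bp in NR cells, 3827 and 6172 bp after 30 min and 4726 and 5274 bp at 2 h, with overlap between the groups. It is named for an H2B gene, but its annotation is long, and 1 of its 2 peaks covers the H1 gene Hist1h1e. Hist1h2ae also ranked in the top 5 by median percentile, from its single library (rank 17 in NR replicate 1).

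The total called length at the histone genes overlapped between the groups, while that of all promoter peaks was larger in both 2 h libraries than in both NR libraries. The 40 genes together had 119265 ± 12924 bp in NR cells, 115853 ± 21831 bp at 30 min and 115813 ± 11097 bp at 2 h (SD, n = 2). By library this was 110126 and 128404 bp, 100416 and 131290 bp, and 107966 and 123660 bp, and replicate 2 was longer in each group. The promoter peaks of all genes covered 8728167 and 11845041 bp in NR cells, 8982729 and 18197363 bp after 30 min and 14265342 and 17980038 bp at 2 h. The histone share of all called promoter DNA was 1.26% and 1.08% in NR cells, 1.118% and 0.722% after 30 min and 0.757% and 0.688% at 2 h. Both libraries at 2 h lay under both NR libraries in this share, and the 30 min pair lay apart from each other. A comparison of 2 libraries with 2 has too few permutations to reach p = 0.05.

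**Figure D4:**
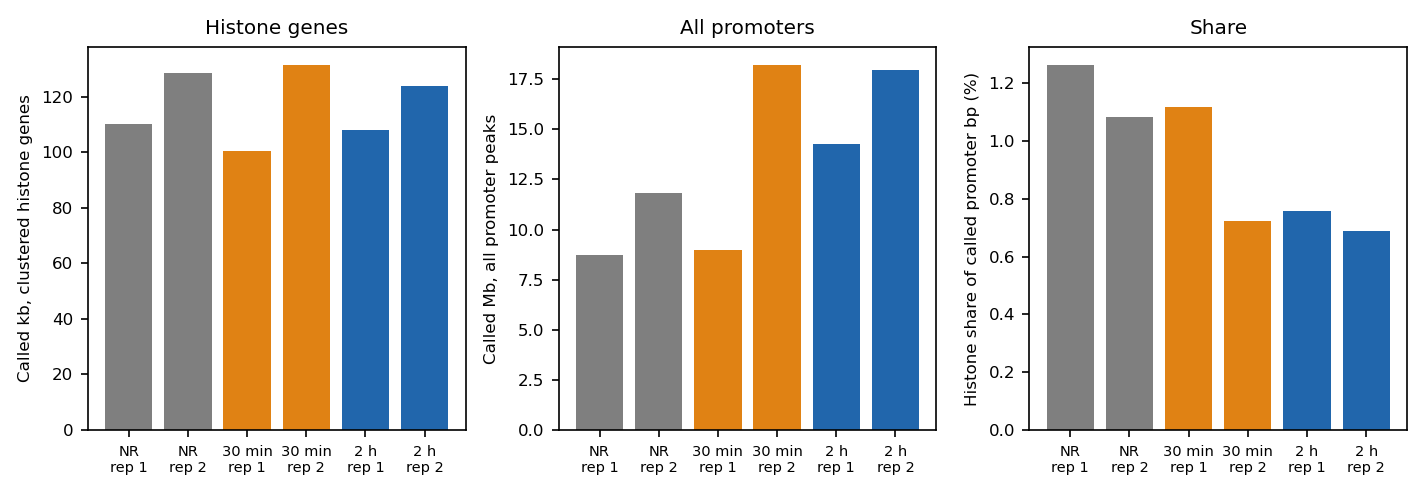
Called DNA per library: kb at the 40 clustered histone genes, Mb at all promoter peaks, and the first as a percentage of the second. The histone total overlaps between the 3 groups, the genome total is higher in both 2 h libraries than in both NR libraries, and the share runs the other way.

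By median, the histone genes varied less than all genes over the 6 libraries in raw length, and more after centring. Among the 35 with a peak in all 6, the longest value was a median of 1.39 times the shortest, from 1.15 (Hist4h4) to 3.16 (Hist1h4i), against 2.22 over the 7410 genes with a peak in all 6. Hist1h4i and Hist1h2af, whose peaks are split or named differently between libraries, and Hist3h2a lay above that value. The SD of log2(bp + 100) was a median of 0.18 for the histone genes and 0.41 for all 7410. After centring, which subtracts a library's median over those genes, it was 0.29 for the histone genes and 0.25 for all. Replicate 2 was longer in 33 of 35 histone genes in NR cells, 35 of 35 at 30 min and 31 of 35 at 2 h, beside 88.0%, 99.6% and 87.1% of all 7410 genes.

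Raw and centred lengths gave different pictures of the comparisons with NR, which share the NR libraries. The test across genes was limma on centred log2(bp + 100) over 9908 genes, which needed a peak in 2 or more libraries, and 37 of the 40 histone genes met this. At 30 min 0 histone genes passed an adjusted p of 0.05 (all genes: 0.232% longer, 0.0101% shorter), and at 2 h 0 passed (0.373% and 0.0606%). Between 2 h and 30 min 0 passed, as did 0.0% of all genes (513 genes were under an unadjusted limma p of 0.05). The unadjusted limma p was under 0.05 for 1, 17 and 4 histone genes, all shorter after centring, where 2.15%, 4.65% and 2.92% of all genes were shorter at that p and 5.85%, 7.95% and 2.26% longer. These counts moved with the scaling and the design: without centring they were 0, 0 and 0, with quantile normalisation 14, 34 and 2, and with the replicate number as a block 1, 26 and 4. The counts over all 9908 genes, in either direction, moved as well. They were 332, 956 and 174 without centring, 954, 1688 and 593 with quantile normalisation, and 943, 1567 and 659 with the block. The median centred log2 difference of the 37 genes was -0.20 at 30 min, -0.53 at 2 h and -0.30 for 2 h against 30 min, beside -0.04, -0.03 and -0.01 over all genes. In raw lengths it was -0.04, -0.05 and 0.02, beside 0.12, 0.45 and 0.30 over all genes. The log2 centring shifts of replicates 1 and 2 were -0.38 and -0.05 in NR cells, -0.45 and 0.34 at 30 min and 0.15 and 0.38 at 2 h. The part of depth in them was not tested. Both 2 h shifts lie above both NR shifts. A gene with the same raw length in all libraries is therefore shorter at 2 h, without overlap, after centring.

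**Figure D5:**
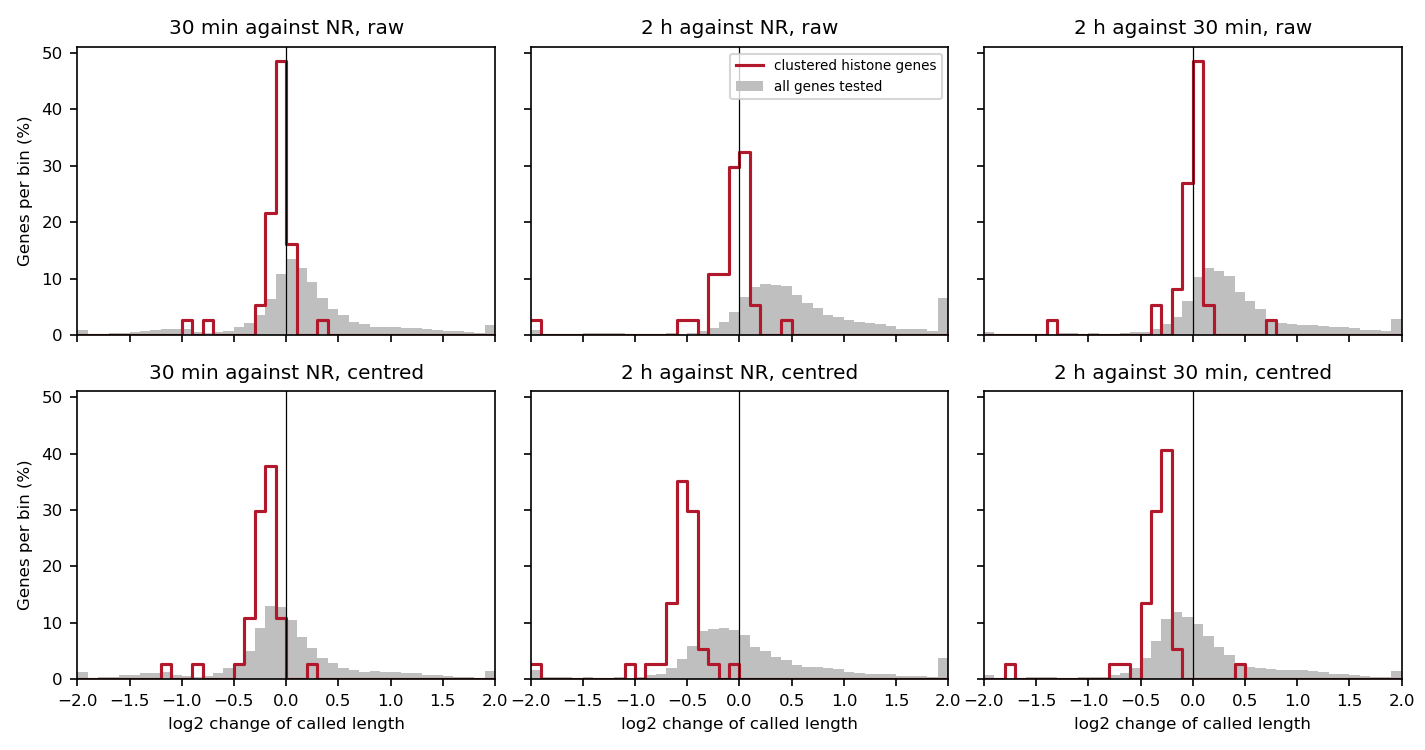
Share of genes (%) per 0.1 bin of log2 difference in called length, for the 37 histone genes tested (red line) and all 9908 genes (grey), in the 3 comparisons with raw lengths above and centred lengths below; values past 2 or -2 are in the end bins. Raw histone differences stand near 0 while the grey distribution lies to the right at 2 h, and after centring the histone genes lie left of 0.

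The direction by gene followed the same split. After centring, 36, 37 and 36 of 37 histone genes had a difference under 0 in the 3 comparisons, where 54.6%, 52.8% and 51.6% of all genes did. In raw lengths 30, 22 and 16 of 37 did, where 33.7%, 12.9% and 16.4% of all genes did. The groups did not overlap, with the histone gene shorter after centring, for 8 genes at 30 min (18.9% of all genes), 34 at 2 h (30.8%) and 22 at 2 h against 30 min (19.0%). None was longer without overlap after centring, where 18.8%, 22.3% and 17.4% of all genes were. In raw lengths 4 were shorter without overlap at 2 h (2.09% of all genes), namely Hist3h2ba, Hist1h3h, Hist1h1t and Hist1h4b, and 1 was longer, Hist1h3f (52.3% of all genes). At 30 min Hist1h3h alone was shorter in raw lengths (1.16%) and none was longer (11.5%), and between 2 h and 30 min none was apart in raw length, shorter (0.727%) or longer (17.0%).

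Most of the remaining members overlapped between groups in bp. Hist1h2bm, Hist1h2ak, Hist1h2an, Hist1h2ah, Hist1h3c, Hist1h3e, Hist1h3f, Hist1h4b, Hist1h4c, Hist1h4d, Hist1h4f, Hist1h4k and Hist1h4n had from 1256 bp (Hist1h4b, 2 h replicate 1) to 5351 bp (Hist1h3c, NR replicate 2). Hist1h3f was 4042 and 4049 bp in NR cells and 4154 and 4145 bp at 2 h, and Hist1h4b was 1614 and 1541 bp and 1256 and 1470 bp. Hist1h2ad, which shares its region with Hist1h2ae, had 4070 bp in NR replicate 1 and 6821 to 7868 bp in the other libraries.

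The merged regions, which do not depend on gene names, gave like counts. After centring 9, 36 and 21 of 36 regions were shorter without overlap in the 3 comparisons, where 18.8%, 30.5% and 19.8% of all 10261 merged regions tested were. In raw lengths 1, 4 and 0 were shorter and 0, 1 and 0 longer, where 0.526%, 1.57% and 0.702% of all regions were shorter and 11.6%, 52.8% and 17.0% longer.

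Genes with wide or strong peaks in general had larger raw differences than the histone genes. Of the 37 histone genes, 25 were in the 10% of genes with the largest mean length, and that 10% as a whole had a raw median difference of 0.43 at 30 min, 0.59 at 2 h and 0.16 between them. By median fold enrichment percentile, 29 of the 37 were in the highest 10%, whose raw medians were 0.27, 0.50 and 0.19. Both sets were picked on all 6 libraries. The choice by length used the same lengths that are compared, so it favours genes that were longer after restimulation.

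The H1 genes gave centred medians of -0.36 at 30 min, -0.61 at 2 h and -0.28 between them over 4 genes tested, and 0 passed. Hist1h1b was 2514 and 3222 bp in NR cells, 2042 and 2668 bp after 30 min and 2189 and 2810 bp at 2 h. Its centred log2 difference was -0.44 ± 0.18 (SE) at 30 min (limma, adjusted p = 0.632) and -0.67 ± 0.18 at 2 h (adjusted p = 0.259). The NR and 30 min values of this gene overlapped in bp and did not after centring. Hist1h1d was 2279 and 2720 bp, 1953 and 2642 bp, and 2144 and 2606 bp, with -0.29 ± 0.17 at 30 min (adjusted p = 0.711). Hist1h1t, described above, was the only member with a peak in both libraries of 1 group (NR) and in neither of another (2 h), which was so for 0.662% of all genes, and adjusted p was 0.363. No member had the opposite pattern at 2 h (2.57% of all genes), and none had either pattern at 30 min against NR (0.374% gained, 0.365% lost) or at 2 h against 30 min (0.71% and 0.096%). With a threshold of 5 on −log10 q the gene no longer had a peak in both NR libraries.

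The H2A genes gave centred medians of -0.18, -0.47 and -0.34 over 9 genes, and the H2B genes -0.21, -0.52 and -0.31 over 3, with 0 passed in each. Hist1h2ac, which shares its peak with Hist1h2bc, was 3082 and 4213 bp in NR cells, 2735 and 4391 bp after 30 min and 2916 and 3799 bp at 2 h, and its centred difference at 2 h was -0.59 ± 0.15 (adjusted p = 0.229). The raw groups overlapped. The pseudogene Hist1h2al had the shortest peaks of the genes present throughout, with 674 and 518 bp, 533 and 546 bp, and 542 and 451 bp at 2 h, and a centred difference of -0.69 ± 0.42 at 2 h (adjusted p = 0.536).

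The 8 H3 genes gave the narrowest range at 2 h, from -0.58 to -0.30 centred and from -0.11 to 0.18 raw, and 0 passed. Hist1h3i was 1553 and 2071 bp in NR cells, 1473 and 2513 bp after 30 min and 1979 and 2112 bp at 2 h. Its raw log2 difference at 2 h was 0.18 and its centred one -0.30 ± 0.13 (adjusted p = 0.422). Hist1h3b was 3014 and 3138 bp, 2617 and 3087 bp, and 3023 and 2759 bp, with -0.09 raw and -0.56 ± 0.25 centred (adjusted p = 0.434). In both genes the raw groups overlapped. Hist1h3h was 4368 and 4433 bp in NR cells, 3648 and 4365 bp after 30 min and 3863 and 4310 bp at 2 h. Both of its NR values were above the other 4, by as little as 3 bp.

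The 13 H4 genes gave centred medians of -0.18, -0.55 and -0.37, and 0 passed. Hist1h4i had the smallest adjusted p at 30 min, 0.504, with a centred difference of -0.87 ± 0.27, and its value in 30 min replicate 1 is 1 of the 2 peaks described above. Counted by position, whatever gene the peak was assigned to, its difference was -0.19. Hist1h4a had 5386 and 5531 bp in NR cells, 5116 and 5683 bp after 30 min and 2996 and 5516 bp at 2 h, with -0.89 ± 0.33 at 2 h (adjusted p = 0.368) and -0.71 ± 0.33 against 30 min (adjusted p = 0.866). In 2 h replicate 1 a further 1614 bp of that region were assigned to Hist1h1a, and by position the differences were -0.52 and -0.38. Hist1h4j, alone under its peak, was 1645 and 1724 bp, 1336 and 1966 bp, and 1248 and 1666 bp, with -0.69 ± 0.17 at 2 h (adjusted p = 0.241). Hist1h4m was 5012 and 5109 bp in NR cells, 3735 and 5188 bp after 30 min and 4773 and 5095 bp at 2 h, with -0.36 ± 0.21 at 30 min (adjusted p = 0.711). Hist1h4m and Hist1h4j thus overlapped between groups in bp at 30 min.

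Of the 7 blocks, the Hist3 pair on chromosome 11 had the lowest median at 2 h, -0.87 centred and -0.39 in raw lengths. Hist3h2ba, an H2B gene alone under its peak, was 1587 and 1694 bp in NR cells, 1150 and 1656 bp after 30 min and 939 and 1281 bp at 2 h. Both 2 h values lay under both NR values. The centred difference was -0.39 ± 0.18 at 30 min (adjusted p = 0.688), -1.02 ± 0.18 at 2 h (adjusted p = 0.120, the smallest of any member) and -0.62 ± 0.18 between them (adjusted p = 0.727), and the raw difference at 2 h was -0.54. Its fold enrichment percentile was 83.4 and 89.6 in NR cells, 55.7 and 71.6 after 30 min and 37.7 and 53.9 at 2 h, ranks within lists of different length and depth that show no change by themselves. Hist3h2a, the H2A gene next to it, was 2152 and 3779 bp, 1696 and 3874 bp, and 1856 and 3094 bp. Its centred difference at 2 h was -0.72 ± 0.26 (adjusted p = 0.362), and in bp its groups overlapped.

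The Hist2 genes on chromosome 3 and Hist4h4 overlapped between the groups in bp. Hist2h3c1, an H3 gene, had the longest called DNA of all members, 8256 and 10249 bp in NR cells, 7946 and 10325 bp after 30 min and 8912 and 10192 bp at 2 h. That is the sum of 2 peaks, 1 over Hist2h3c1 and Hist2h2aa1 and 1 over the near-identical copies Hist2h3c2 and Hist2h2aa2. Its fold enrichment was the highest of all genes in NR replicate 1 and ranked 401 in NR replicate 2. The sources used here do not say how reads that match several copies were placed, so values of such copies are uncertain. Hist2h2ac (H2A) was 3201 and 3563 bp, 2963 and 3563 bp, and 3429 bp in both libraries at 2 h, with a raw difference at 2 h of 0.02. Hist2h4 (H4) was 2466 and 2845 bp, 2424 and 3282 bp, and 2769 and 2784 bp, with 0.07. Hist2h3b (H3) was 2184 and 2458 bp, 1970 and 2376 bp, and 1978 and 2420 bp, with -0.08. Hist4h4 was 2126 and 2172 bp in NR cells, 1969 and 2273 bp after 30 min and 2114 and 2239 bp at 2 h, with a raw difference at 2 h of 0.02. Their centred differences at 2 h were -0.43 (Hist2h3c1), -0.46 (Hist2h2ac), -0.41 (Hist2h4), -0.56 (Hist2h3b) and -0.46 (Hist4h4), with adjusted p from 0.374 to 0.579.

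Genes that act on histone genes or with histones were read from 4 lists, and 0 of their tested genes passed in any comparison. Per list and comparison, 0 to 2 genes had an unadjusted limma p under 0.05. Over all 9908 genes, 793 had it at 30 min, 1249 at 2 h and 513 for 2 h against 30 min. Of 27 genes for histone gene regulation and mRNA processing, 22 were tested, with centred medians of -0.04 at 30 min and -0.13 at 2 h and raw medians of 0.12 and 0.34. Slbp, whose protein binds the stem loop of histone mRNAs, was 1306 and 1698 bp in NR cells, 838 and 1621 bp after 30 min and 1147 and 1552 bp at 2 h, with -0.62 ± 0.14 centred at 2 h (adjusted p = 0.197) and -0.15 raw. Hinfp, a factor of H4 promoters, was 1008 and 1047 bp, 906 and 1097 bp, and 1010 and 1083 bp, with -0.45 ± 0.24 centred at 2 h (adjusted p = 0.496). Zfp473 had the largest centred difference of the list at 2 h, and it was longer, by 1.49 ± 0.91 (adjusted p = 0.538). It was 0 and 767 bp in NR cells, 515 and 990 bp after 30 min and 740 and 1476 bp at 2 h. Nfyc had -0.51 ± 0.21 (adjusted p = 0.395). Of the 22 tested, 15 had a centred difference under 0 at 2 h (52.8% of all genes). In raw lengths 2 were under 0 (12.9% of all genes) and 20 above it. No peak was assigned to Npat, but within 1 kb of the gene the called DNA came to 965 and 1173 bp, 1037 and 1664 bp, and 1430 and 1665 bp.

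Of the 9 tested histone genes outside the clusters, which code for replacement variants, 8 had a centred difference under 0 at 2 h (52.8% of all genes). In raw lengths 2 did (12.9%). The exception after centring was H3f3b. Over the 9 tested the centred medians were -0.12 and -0.39 and the raw ones 0.04 and 0.09. H3f3b, for the variant H3.3, was 1922 and 1650 bp in NR cells, 1997 and 5998 bp after 30 min and 5740 and 6019 bp at 2 h, with a centred difference at 2 h of 1.19 ± 0.31 (adjusted p = 0.255). H2afv, for an H2A.Z form, was 545 and 1168 bp, 317 and 935 bp, and 249 and 653 bp, with -1.30 ± 0.44 (adjusted p = 0.341). The 19 histone chaperones tested had centred medians of 0.12 and -0.08 and raw ones of 0.28 and 0.40. The 19 genes of S phase entry and DNA replication had 0.03 and -0.17 centred and 0.19 and 0.31 raw, and Ccne1, for cyclin E1, was 2073 and 2168 bp, 2109 and 2365 bp, and 2023 and 2362 bp.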

How the data were processed

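The authors called polymerase peaks in each library on its own, per the labels. The submitters' processing notes name MACS2 2.1.0, BWA 0.7.13 and Picard 1.119 and the build mm10, without saying what each did. Fragments of 360 to 600 bp came from chromatin fixed in 1% formaldehyde for 10 min, per the labels' protocols. Each deposited table holds the peaks within 1000 bp of a start site, each assigned by the authors to 1 gene, with a pileup (signal), a fold enrichment (ratio) and −log10 p and q values, per the file headers. The deposited summit lists give a −log10 q per summit. Pileup and fold enrichment were used only to rank peaks within a library. Depth was inferred from the pileup of local background (signal divided by fold enrichment), since the files hold no counts. The smallest background of a library, in reads, was scaled with an assumed genome size of 1870000000 bp. The narrowest promoter peak of the library, 210 to 297 bp wide, stood in for the fragment length. That is below the 360 to 600 bp of the protocols, so the read numbers are approximate.

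Widths were summed per gene, taken as log2(bp + 100) and centred on each library's median over the 7410 genes with a peak in all 6 libraries. Those with peaks in 2 or more libraries entered limma 3.58.1 in R 4.3.3 (lmFit, eBayes with trend, group only, all 6 libraries), with Benjamini-Hochberg adjustment over 9908 genes. The test was checked on simulated data, in which all genes had the same spread and the libraries did not differ in depth. That check does not cover the centring or the differences in depth. Figures and summaries used Python 3.11.15. Promoter sequences and gene positions came from RefSeq (GRCm38.p6). Per-library values were printed for members past the threshold, for those with the largest differences among genes whose groups do not overlap, for a gained or lost peak, for the 5 highest by median fold enrichment percentile and for the Hist2, Hist3 and Hist4 members; Hist1h3h, Hist1h3f, Hist1h4b, Hist1h1c, Hist1h4h, Hist1h2af, Hist1h2ag, Hist1h1a and Hist1h2ad were added after their values were seen. The members, lists and tests were chosen with earlier results of these data known. The 3 libraries for H3K36me3 and the input library were not analysed here, and 1 marker of the list for other cells is not reported here.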

Additional observations from a re-analysis of the deposited data

How the results depend on the processing

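The count of clustered histone genes past the threshold was 0 in every comparison under every alternative run. The medians moved most with scaling, and 2 of them changed sign, for 2 h against 30 min without centring and at 30 min without 1 library: without centring they were -0.0388 at 30 min, -0.0547 at 2 h and 0.0155 for 2 h against 30 min, with quantile normalisation -0.52 at 30 min and -0.78 at 2 h, and with a pseudocount of 1000 bp -0.32 at 2 h and -0.17 for 2 h against 30 min. Leaving out 1 library gave medians from -0.43 to 0.0091 at 30 min, where the upper value is without 30 min replicate 2, from -0.55 to -0.43 at 2 h, and from -0.53 to -0.0734 for 2 h against 30 min. The counts over all genes (24 at 30 min, 43 at 2 h, 0 for 2 h against 30 min) were 40, 112 and 8 with a pseudocount of 1000 bp, 53, 116 and 8 with a peak in all 6 libraries, 14 and 24 by position at 30 min and 2 h, 79 and 1 (2 h, and 2 h against 30 min) with quantile normalisation, 86 and 4 with lists of equal length, 173 at 2 h with only the 4 libraries compared, and 4 for 2 h against 30 min without the trend. Leaving out 1 library gave 4 to 227, 4 to 186 and 0 to 206, with the highest in each without 30 min replicate 2. With the replicate number as a block, 19, 33 and 0 genes were called and 0 histone genes, and the medians stayed at -0.20, -0.53 and -0.30. The labels do not say that a number marks a shared batch; replicate differences correlated across genes by 0.26, 0.19 and 0.31 between groups. The cause of these shifts was not tested. Peak width cannot show a change in height once a peak is called, and depth differed up to several-fold within a group.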
